A study of Mus musculus with 7 samples.

Results

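The variable segments of the T cell receptor alpha locus (Trav) and beta locus (Trbv) were followed through RNA sequencing of naive CD4 T cells from wild-type mice and from mice with a gain-of-function form of PIK3CD. Members were all genes of the deposited table whose symbol begins with Trav or Trbv. These were 163 of 34745 genes, of which 128 were Trav and 35 were Trbv segments. For each library, the usage of a segment was its share of all Trav counts or of all Trbv counts, in percent.

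The 7 libraries came from spleens of C57BL/6 mice, all male and aged 8 weeks. There were 3 libraries labelled Wild-type (WT below) and 4 labelled PIK3CD GOF (heterozygous) (GOF below), with littermates as controls and no treatment. PIK3CD encodes p110delta, the catalytic subunit of phosphoinositide 3-kinase that predominates in lymphocytes, and the labels do not name the mutation. Cells were isolated by negative selection, so the fraction was not sorted on a receptor or on CD4, and the number of mice given for the groups matches the number of libraries. The p-values below set differences between the groups against the spread between these libraries.

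A T cell receptor is a pair of an alpha and a beta chain. Each alpha chain gene is made in the thymus by joining a Trav segment to a Traj segment, and each beta chain gene by joining a Trbv, a Trbd and a Trbj segment, after which the joined exon is spliced to the constant exons Trac or Trbc. The variable segment encodes the first and the second antigen-contacting loop and the start of a further loop, the most diverse one, which begins at a conserved cysteine. Because a T cell keeps the segments it joined, the set of variable segments in the mRNA of a T cell population reports which receptors its cells carry, weighted by the receptor mRNA in each cell. In bulk RNA, fewer cells with a segment and less receptor RNA per such cell cannot be told apart.

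The sequences show how segments end where that loop begins. The first 5 are the Trbv segments whose usage changed, the next 3 are the other Trbv segments among the leading 4 by mean usage, and the last 4 lead the Trav segments. Printed are the last 75 coding bases of each, 5′ to 3′, with the last in-frame cysteine codon in capitals (GENCODE M21, mm10).
Trbv19: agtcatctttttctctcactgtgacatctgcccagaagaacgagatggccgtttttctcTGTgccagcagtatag
Trbv3: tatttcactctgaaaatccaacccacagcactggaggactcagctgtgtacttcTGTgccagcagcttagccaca
Trbv29: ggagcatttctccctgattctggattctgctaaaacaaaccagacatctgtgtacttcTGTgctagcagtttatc
Trbv12-2: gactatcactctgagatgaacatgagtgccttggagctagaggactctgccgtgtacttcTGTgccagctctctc
Trbv14: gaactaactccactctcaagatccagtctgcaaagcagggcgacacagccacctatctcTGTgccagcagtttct
Trbv13-2: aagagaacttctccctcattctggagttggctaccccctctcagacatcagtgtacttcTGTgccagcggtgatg
Trbv31: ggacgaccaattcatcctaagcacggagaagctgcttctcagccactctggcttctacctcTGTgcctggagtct
Trbv15: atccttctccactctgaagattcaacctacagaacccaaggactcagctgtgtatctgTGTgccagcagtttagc
Trav14n-3: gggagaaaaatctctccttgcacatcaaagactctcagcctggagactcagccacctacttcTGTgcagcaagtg
Trav14-1: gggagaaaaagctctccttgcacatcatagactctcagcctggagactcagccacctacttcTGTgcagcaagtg
Trav7-4: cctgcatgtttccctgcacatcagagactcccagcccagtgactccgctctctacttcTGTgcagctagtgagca
Trav14d-3-dv8: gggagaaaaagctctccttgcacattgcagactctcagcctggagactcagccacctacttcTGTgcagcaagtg
Over their whole coding sequence, Trbv19 and Trbv3 are 55.4% identical. The Trav14 copies are close to each other, with 96.7% identity between Trav14d-3-dv8 and Trav14n-3 and 94.0% between Trav14-1 and Trav14-2.

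On mm10, the Trav segments span chromosome 14 from 52427928 to 53977678 and the Trbv segments chromosome 6 from 40891229 to 41558452. The annotation types 108 Trav segments as functional and 20 as pseudogenes, and 22 Trbv segments as functional and 13 as pseudogenes. Trbv31 (chromosome 6, 41557691 to 41558452) lies behind the constant genes on the minus strand and is joined by inversion. In this genome build part of the Trav locus is repeated, so that 39 segments carry a d in their name, 34 carry an n and 55 carry neither. Segments with dv in their name can also serve as variable segments of the delta chain, the partner of the gamma chain in gamma delta T cells.

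How much of each segment the deposited counts can see differed between the loci. Of the 128 Trav segments, 49 had 0 counts in every library, 39 of them typed as functional. Of these 49, 23 were d copies, 20 were n copies and 6 were neither. No 50-base stretch of 41 of the 49 is free of an exact match in the annotated transcripts of another gene, whereas this held for 1 of the 79 Trav segments with a count, Trav7n-6. Of the segments at 0, 34 have a coding sequence identical to that of another segment, and of those with a count none does. The median share of 50-base stretches found in no other gene was 0% for Trav segments at 0 and 55.8% for those with a count. How reads matching more than 1 place were treated is not given in the sources used here, so a Trav segment listed at 0 is not shown to be unused. Of the 35 Trbv segments, 7 had 0 counts, all pseudogenes, and for 6 of these at least 1 such stretch was found in no other gene. The low values of Trbv4 and Trbv5 in this measure come with a gene, 5830405F06Rik, annotated over both.

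**Figure D1:**
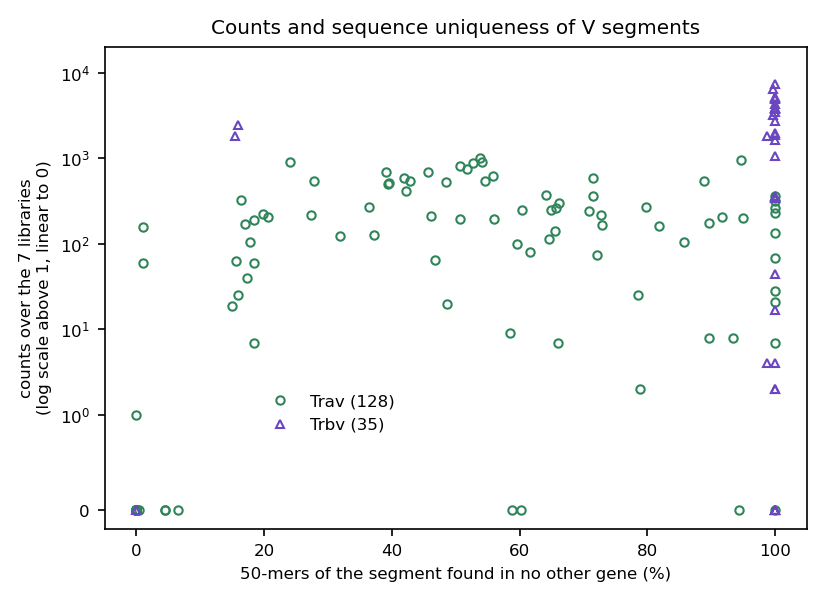
Each point is a variable segment: the x axis gives the percent of its 50-base stretches that occur in no other annotated gene, the y axis its counts summed over the 7 libraries, on a log scale above 1. Trav segments with 0 counts gather at 0%, whereas nearly all Trbv segments lie near 100%.

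The best known case is the segment of invariant natural killer T (iNKT) cells, whose alpha chain joins Trav11 (older name Valpha14) to Traj18. Positions 181 to 240 of the coding sequences of its 3 copies are shown because they tell which copies a read can separate. Capitals mark the positions at which they are not all alike.
Trav11: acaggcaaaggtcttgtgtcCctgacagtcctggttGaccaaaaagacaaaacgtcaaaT
Trav11d: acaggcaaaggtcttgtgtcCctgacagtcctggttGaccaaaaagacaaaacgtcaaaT
Trav11n: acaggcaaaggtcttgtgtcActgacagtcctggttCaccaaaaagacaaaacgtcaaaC
Trav11 and Trav11d are identical over their first 342 coding bases, and both were listed at 0 counts in all 7 libraries. Trav11n, typed as a pseudogene, differs at 8 of 342 positions and had 0 counts in each WT library and 3, 13, 8 and 1 counts in GOF 1 to 4. Traj18 had between 1 and 3 counts per library. The use of the iNKT receptor could thus not be measured through its alpha segment. Trav1 (older name Valpha19), joined to Traj33 in mucosal-associated invariant T cells, had 0, 0 and 6 counts in WT and 15, 17, 9 and 22 in GOF. Its share was 0.382% ± 0.138 (SD, n = 4) of Trav counts in GOF and 0.111% ± 0.193 (SD, n = 3) in WT, and the groups overlapped. The 0 counts in WT 1 and WT 2 allow a share of up to 0.169% and 0.152%. In edgeR's quasi-likelihood test of usage, Trav1 did not pass (adjusted p = 0.204). Without WT 3 it did (adjusted p = 0.0218), with no count left in WT. Trav1 could pass the filter on low counts through GOF libraries alone.

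Library totals lay between 14497957 and 16293539 counts. Cd4 was at 754 ± 87.0 CPM (SD, n = 3) in WT and 1106 ± 50.6 CPM (SD, n = 4) in GOF, and Cd8a at 9.66 ± 4.93 and 5.62 ± 1.16 CPM (counts per 1000000, with library totals scaled by TMM). Of the markers of naive T cells reported here, Il7r and Lef1 were lower in GOF, Ccr7 and Tcf7 did not pass the test, and Cd44, which rises on activation, went from 7.25 ± 2.87 to 41.6 ± 8.53 CPM (edgeR, adjusted p = 0.00026). Markers of B cells summed to between 363 and 477 CPM in WT and between 717 and 1167 CPM in GOF, with 7 of 12 higher. Markers of myeloid cells summed to between 60.4 and 104 CPM in WT and between 181 and 587 CPM in GOF, with 12 of 14 higher, and were highest in GOF 1 and GOF 3. In these lists C1qa, C1qb and C1qc had counts in all 7 libraries, Cr2 was at 0 in WT 1, Itgax in WT 3 and Fcgr4 in WT 2 and WT 3. In the edgeR fit behind these calls, 16.8% of all 12668 genes tested passed as higher in GOF and 14.5% as lower.

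Transcripts with an alpha segment stood at 2.03 times the WT level in GOF cells, and those with a beta segment at 1.15 times. All Trav segments together took 1772, 1977 and 1798 counts in WT 1 to 3 and 4146, 4001, 4396 and 4108 counts in GOF 1 to 4. Scaled to CPM this was 127, 136 and 125 in WT and 270, 255, 264 and 264 in GOF. Every GOF library lay far above every WT library, with means of 129 ± 5.81 (SD, n = 3) and 263 ± 5.91 CPM (SD, n = 4), a ratio of 2.03. The exact permutation test (2-sided) gave p = 0.0571, the smallest that 3 against 4 libraries allow, and p = 0.147 after adjustment over 18 such measures.

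All Trbv segments together took 8514, 8181 and 8494 counts in WT and 10590, 10332, 11663 and 10247 in GOF. In CPM the WT libraries were at 611, 563 and 591 and the GOF libraries at 689, 659, 701 and 658. The groups again did not overlap, but the gap was small, with means of 588 ± 24.2 (SD, n = 3) and 677 ± 21.3 CPM (SD, n = 4) and a ratio of 1.15 (exact permutation test, 2-sided, p = 0.0571, adjusted p = 0.147). Without GOF 1 and GOF 3, where the myeloid markers were highest, the differences between group means were 130.2 CPM for Trav and 70.5 CPM for Trbv, against 134 and 88.5 CPM with all libraries. The part of other cells in these totals was not tested.

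The constant genes behaved like the segments of their own locus only in part. Trac, the constant exons of the alpha chain, was at 584 ± 18.8 CPM (SD, n = 3) in WT and rose to 1294 ± 87.4 CPM (SD, n = 4) in GOF, a rise of 1.15 ± 0.08 (SE) on the log2 scale (edgeR, adjusted p = 2.4e-05). Trbc1 and Trbc2, the alternative constant genes of the beta chain, rose by 0.51 and 0.52 on the log2 scale (edgeR, adjusted p = 0.0046 and 0.00435). Trav counts per 100 Trac counts were 22.2 ± 1.35 (SD, n = 3) for WT and 20.4 ± 1.08 (SD, n = 4) for GOF libraries, which overlapped (exact permutation test, 2-sided, p = 0.171). Trbv counts per 100 Trbc counts were 73.5 ± 3.72 (SD, n = 3) in WT and 59.2 ± 4.81 (SD, n = 4) in GOF, without overlap (exact permutation test, 2-sided, p = 0.0571, adjusted p = 0.147). Trac counts per 100 Trbc counts were 73.1 ± 5.66 in WT (SD, n = 3) and 113 ± 2.69 in GOF (SD, n = 4), again without overlap.

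**Figure D2:**
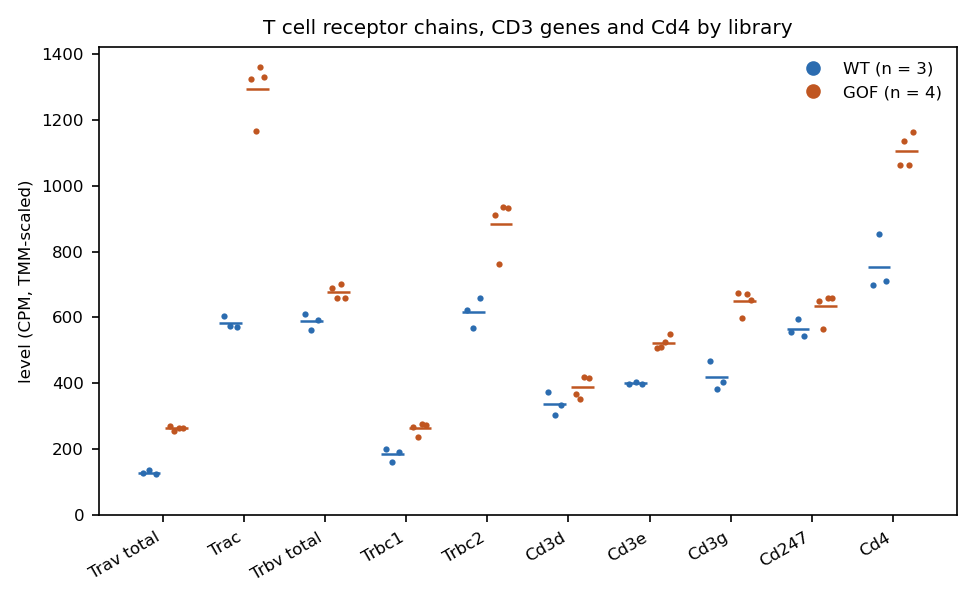
Level in CPM (TMM-scaled) of the summed Trav and Trbv segments, the constant genes, the CD3 genes and Cd4, with 1 point per library and a line at each group mean (WT, n = 3, and GOF, n = 4). Only Cd3d and Cd247 overlap between the groups, and Trac is at 584 CPM in WT and 1294 CPM in GOF.

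Of the 8 genes of the list of receptor constant regions, CD3 chains and Cd4, 6 rose. Besides the constant genes these were Cd3e, from 401 ± 3.40 to 523 ± 19.3 CPM, Cd3g, from 419 ± 44.9 to 649 ± 35.3 CPM, and Cd4. Cd3d and Cd247, which encode the CD3 delta and zeta chains of the same complex, did not pass the test, with log2 fold changes of 0.21 and 0.16 (edgeR, adjusted p = 0.149 and 0.172). Of the 11 genes that carry out or accompany V(D)J recombination, none of the 8 tested passed. Rag2, a subunit of the recombinase, and Ptcra, the alpha chain of the pre-receptor of thymocytes, had 0 counts in all 7 libraries, and Rag1, the other subunit of the recombinase, was at most at 0.417 CPM. In the same fit, 31.3% of all 12668 genes tested passed, 16.8% as higher and 14.5% as lower in GOF.

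Segment by segment, most tested alpha segments were higher in level in GOF cells. The filter on low counts left 63 Trav segments, which held 98.7% of Trav counts, and 22 Trbv segments, which held 99.9% of Trbv counts. The 65 Trav segments that were not tested include the 49 at 0 and reached at most 17 counts in a library. The 13 untested Trbv segments include the 7 at 0 and reached at most 10. In level, 34 of the 63 Trav segments rose and none fell, where 31.3% of all genes tested passed and 16.8% rose. The fitted log2 fold change was above 0 for 62 of the 63, with a median of 1.13, against 0.01 over all genes tested. A segment with low counts could pass the filter through GOF libraries alone, so these figures describe the tested segments and not all 128. The groups did not overlap in CPM for 47 of the 63, all higher in GOF, where 39.8% of all genes tested did not overlap. DESeq2 called 37, with either scaling, and leaving out 1 library gave between 21 calls, without GOF 3, and 29, without WT 1. Without GOF 1 and GOF 3 together 10 passed, where 2124 of all 12596 genes tested passed, against 3968 of 12668 with all libraries.

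Trav14d-3-dv8 had the smallest p among the Trav segments. It was at 5.31, 4.75 and 4.04 CPM in WT and at 12.0, 11.5, 11.9 and 9.90 CPM in GOF, or 1.27 ± 0.18 (SE) on the log2 scale (edgeR, adjusted p = 0.000902). Trav14-1 was at 5.31, 5.57 and 4.66 CPM in WT and at 12.9, 11.9, 12.6 and 8.61 CPM in GOF. For both segments GOF 4 was the lowest GOF library and still above all of WT.

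Beta segments moved less as a block in level than alpha segments. Of the 22 tested, 6 rose (Trbv3, Trbv4, Trbv12-2, Trbv13-1, Trbv14 and Trbv31), Trbv19 fell, and the median log2 fold change was 0.24. Of all genes tested 31.3% passed in this fit, a share close to that of the beta segments in either direction. By direction, 16.8% of all genes passed as higher and 14.5% as lower, where 6 and 1 of the 22 beta segments did. The fitted log2 fold change was above 0 for 18 of the 22. Trbv4 and Trbv13-1 rose by 0.40 and 0.38 on the log2 scale (edgeR, adjusted p = 0.04 and 0.0193). Groups did not overlap for 12 of the 22, with 10 higher and 2 lower in GOF, where 39.8% of all genes tested did not overlap, 21.5% higher and 18.2% lower. Without GOF 1 and GOF 3, 2 of the 22 passed, where 2124 of all 12596 genes tested passed, against 3968 of 12668 with all libraries.

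Usage, the share within a chain, sets aside the change of the total. Beta usage was led by Trbv3, Trbv13-2, Trbv31, Trbv15 and Trbv19, and the leading 8 Trbv segments held 60.4% of Trbv counts on average. Ranks by counts and ranks per length differed. On the FPKM scale Trbv13-2 led with a mean share of 12.1%, followed by Trbv3 with 10.0% and Trbv15 with 8.84%. Trbv31, at rank 3 by counts, came at rank 10 with 4.36%. Coding lengths were close, at 335 bases for Trbv31, 340 for Trbv13-2, 347 for Trbv15 and 351 for Trbv3. The FPKM ranks thus depend on the lengths behind FPKM, and which length suits the expressed segments was not tested. Trbv13-2, older name Vbeta8.2, and its neighbours Trbv13-1 and Trbv13-3 together held 19.1% ± 0.415 (SD, n = 3) of WT Trbv counts and 19.5% ± 0.659 (SD, n = 4) of GOF ones.

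In GOF cells 5 of 22 Trbv segments differed in usage: Trbv3, Trbv12-2 and Trbv14 rose and Trbv19 and Trbv29 fell. Of all 12668 genes in the same fit 31% passed, 16.4% as higher and 14.5% as lower, so the share of Trbv segments called, 22.7%, was below the background. Group ranges of usage did not overlap for 11 of 22 Trbv segments, 6 higher and 5 lower in GOF, where 39.4% of all genes tested did not overlap.

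Trbv19 (older name Vbeta6; chromosome 6, 41178375 to 41179048) lost the most in percentage points of Trbv counts. It took 887, 794 and 875 counts in WT and 625, 554, 603 and 582 counts in GOF, although each GOF library had more Trbv counts. Its share was 10.4%, 9.71% and 10.3% in WT and 5.90%, 5.36%, 5.17% and 5.68% in GOF. All GOF libraries lay close together and well below the lowest WT library. The mean went from 10.1% ± 0.382 (SD, n = 3) to 5.53% ± 0.326 (SD, n = 4), or -0.88 ± 0.09 (SE) on the log2 scale (edgeR, adjusted p = 0.000169). In WT it ranked first among Trbv segments by counts. Trbv19 was also the only Trbv segment that passed the test as lower in level, from 63.7, 54.6 and 60.9 CPM to 40.6, 35.4, 36.2 and 37.4 CPM.

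Trbv3 (chromosome 6, 41048290 to 41048828) gained the most percentage points. Its share was 8.82%, 8.12% and 8.92% in WT and 10.8%, 12.4%, 12.6% and 12.1% in GOF. The lowest GOF library, GOF 1, was still above all WT libraries. The mean went from 8.62% ± 0.440 (SD, n = 3) to 12.0% ± 0.812 (SD, n = 4), or 0.47 ± 0.09 (SE) on the log2 scale (edgeR, adjusted p = 0.00544). It was the leading Trbv segment by counts in GOF.

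Trbv29 (older name Vbeta7; chromosome 6, 41271394 to 41271881), a beta partner of the iNKT receptor, was at 3.25%, 3.47% and 3.58% in WT and at 2.40%, 2.65%, 2.71% and 2.51% in GOF. The groups did not overlap. Its usage fell by 0.42 on the log2 scale with an SE of 0.12 (edgeR, adjusted p = 0.0245), whereas its level did not pass the test (log2 fold change -0.22, edgeR, adjusted p = 0.201). The call was lost without WT 3 (adjusted p = 0.0727), GOF 1 (0.0726) or GOF 4 (0.0588) in the same edgeR test.

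Trbv14 (older name Vbeta13; chromosome 6, 41135145 to 41135616) was at 2.24%, 2.41% and 2.33% in WT and at 2.95%, 2.84%, 3.16% and 3.04% in GOF. Its mean went from 2.33% ± 0.0824 (SD, n = 3) to 3.00% ± 0.140 (SD, n = 4), or 0.37 ± 0.12 (SE) on the log2 scale (edgeR, adjusted p = 0.044). Leaving out any 1 of the 7 libraries put the adjusted p between 0.0556, without GOF 2, and 0.113, without GOF 3, at log2 fold changes between 0.34 and 0.39.

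Trbv12-2 (older name Vbeta5.1; chromosome 6, 41118851 to 41119364) was at 1.36%, 2.26% and 2.33% in WT and at 2.86%, 3.30%, 3.00% and 3.08% in GOF. WT 1 stood below the other WT libraries, with 116 counts against 185 and 198, and all GOF libraries were above all of WT. The usage rose by 0.63 on the log2 scale with an SE of 0.19 (edgeR, adjusted p = 0.037). Without WT 1 it rose by 0.41 with an adjusted p of 0.0538, and without any 1 of the GOF libraries the adjusted p lay between 0.0633 and 0.074. Its neighbour Trbv12-1, 88.2% identical in coding sequence, went from 1.78% ± 0.176 (SD, n = 3) to 1.42% ± 0.118 (SD, n = 4), without overlap and without passing the test (edgeR, log2 fold change -0.33, adjusted p = 0.141).
The pair is shown over coding positions 170 to 244, where 15 of its 44 differences lie, in capitals.
Trbv12-1: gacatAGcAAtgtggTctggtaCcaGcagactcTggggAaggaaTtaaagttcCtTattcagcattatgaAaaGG
Trbv12-2: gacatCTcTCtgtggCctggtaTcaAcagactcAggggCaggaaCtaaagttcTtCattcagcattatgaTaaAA
Of the 50-base stretches of Trbv12-2, 98.8% occur in no other annotated gene, and of those of Trbv12-1 all do.

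Shares of a chain sum to a whole, so a fall in Trbv19 raises the other shares. With Trbv19 taken out of the total, Trbv3 still rose, by 0.40 on the log2 scale (edgeR, adjusted p = 0.0117), and Trbv29 fell by 0.49 (adjusted p = 0.012). Trbv12-2 and Trbv14 did not pass there (edgeR, adjusted p = 0.0564 and 0.0905). Relative to the constant genes in place of the Trbv total, Trbv19 fell by 1.19 (edgeR, adjusted p = 4.29e-05) and Trbv29 by 0.73 (adjusted p = 0.00354). On that scale Trbv3 did not pass, at 0.16 in log2 terms (edgeR, adjusted p = 0.285), nor did Trbv14 (0.05, adjusted p = 0.794) or Trbv12-2 (0.32, adjusted p = 0.271), and 9 Trbv segments were lower and none was higher. Without GOF 1 and GOF 3, the usage of Trbv19 fell by 0.88 (edgeR, adjusted p = 0.00498) and that of Trbv3 rose by 0.50 (adjusted p = 0.0298), while Trbv29, Trbv14 and Trbv12-2 did not pass (adjusted p = 0.133, 0.222 and 0.117).

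**Figure D3:**
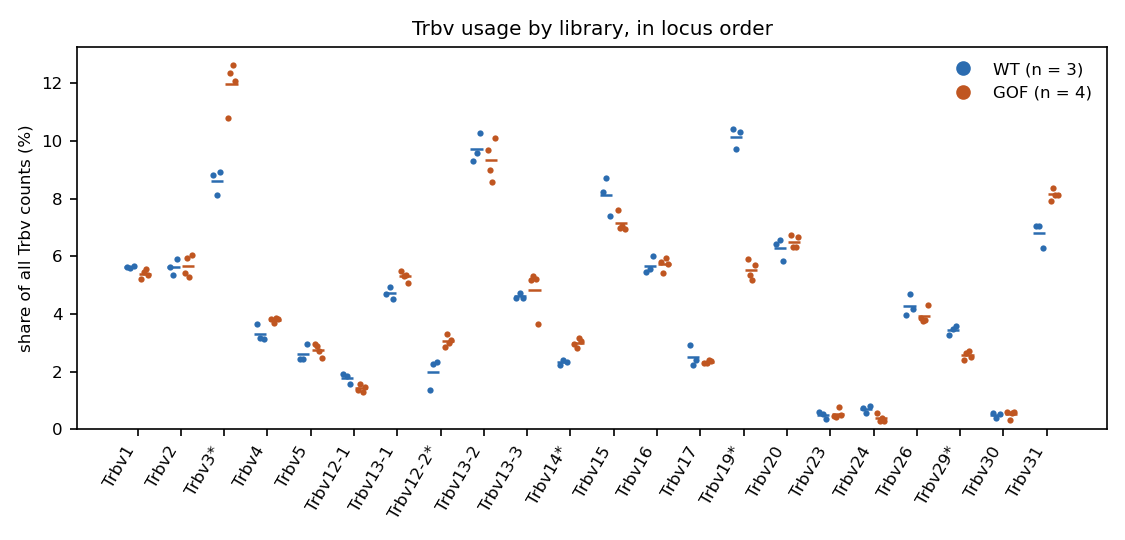
Share of Trbv counts in percent for the 22 tested Trbv segments in their order along the locus, with 1 point per library and a line at the group mean (WT, n = 3, and GOF, n = 4). A star marks the 5 segments whose usage passed the test, among which Trbv19 moved from 10.1% to 5.53% and Trbv3 from 8.62% to 12.0%.

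Several frequent Trbv segments had ranges that overlapped between the groups. Trbv13-2 took 9.72% ± 0.493 (SD, n = 3) in WT and 9.34% ± 0.681 (SD, n = 4) in GOF. Trbv2 (Vbeta4), Trbv16 (Vbeta11) and Trbv20 (Vbeta15) had usage log2 fold changes between 0.01 and 0.05. Trbv15 (Vbeta12) was at 8.12% ± 0.663 in WT and 7.15% ± 0.316 in GOF, with overlapping groups. Trbv31 (Vbeta14), joined by inversion, was at 7.05%, 7.07% and 6.30% in WT and at 7.92%, 8.38%, 8.13% and 8.14% in GOF. Its groups did not overlap, and its usage log2 fold change of 0.26 missed the threshold in edgeR (adjusted p = 0.0551) and passed in DESeq2 (adjusted p = 0.039).

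The other beta partners of the iNKT receptor besides Trbv29 did not pass in usage. Trbv1 (Vbeta2) was at 5.63% ± 0.0343 (SD, n = 3) in WT and 5.39% ± 0.149 (SD, n = 4) in GOF, and Trbv13-1 (Vbeta8.3) went from 4.72% ± 0.210 to 5.32% ± 0.172. Both sets of ranges were without overlap (edgeR, adjusted p = 0.636 and 0.201). Trbv13-3 (Vbeta8.1) was at 4.57%, 4.72% and 4.57% in WT and at 5.18%, 5.31%, 5.20% and 3.65% in GOF, where GOF 4 alone lay below WT. In level, 31.3% of all genes tested passed. In the list of iNKT and mucosal-associated invariant T cell markers, Klrb1c, Il2rb and Tbx21 rose and Slamf1 and Il18r1 fell, of 6 tested. Zbtb16, the defining transcription factor of these cells, was too low to be tested, with 0.284 ± 0.315 CPM in WT and 0.670 ± 0.468 CPM in GOF. The list summed to between 181 and 211 CPM in WT and between 219 and 239.9 CPM in GOF. Markers of regulatory T cells, which summed to between 295 and 396 CPM in WT and between 300 and 336 CPM in GOF, were split as well: Foxp3 rose from 30.5 ± 2.07 to 71.9 ± 3.58 CPM, with Ikzf2 and Ctla4, while Il2ra, Tnfrsf18 and Ikzf4 fell. The part of such cells in the usage differences was not tested.

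Pseudogenes took under 1% of Trbv counts in every library. It was 0.846%, 0.623% and 0.883% in WT and 0.585%, 0.281%, 0.437% and 0.283% in GOF. The groups did not overlap (exact permutation test, 2-sided, p = 0.0571, adjusted p = 0.147). Most of it was Trbv24, with 63, 46 and 69 counts in WT and 59, 29, 46 and 28 in GOF, a usage log2 fold change of -0.90 that missed the threshold (edgeR, adjusted p = 0.0618) and passed in DESeq2 (adjusted p = 0.0428). Without GOF 1 it was -1.15 (edgeR, adjusted p = 0.0343).

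Alpha usage, in contrast to alpha level, gave no call. Of the 63 Trav segments tested, none passed in edgeR or in DESeq2, where 31% of all 12668 genes in the edgeR fit passed. WT libraries held at most 1977 Trav counts, against at least 8181 Trbv counts, so shifts in alpha usage are harder to detect. Trav12-3, at 0.75 ± 0.30 (SE) on the log2 scale, did not pass (edgeR, adjusted p = 0.0914). Trbv12-2 passed at 0.63 ± 0.19 (SE). The lack of alpha calls thus does not show that alpha usage was unchanged. In level, 5386 of the 12668 genes had an unadjusted p under 0.05 in edgeR. Among the 63 Trav segments, 8 had an unadjusted p under 0.05 in usage. The smallest was that of Trav9-1, at 4.35%, 2.73% and 3.00% in WT and 1.79%, 2.00%, 2.34% and 2.34% in GOF (edgeR, log2 fold change -0.66, adjusted p = 0.0627). The groups of Trav9-1 did not overlap, and WT 1 was far above the other WT libraries. Group ranges of usage were without overlap for 9 of the 63, 3 higher and 6 lower in GOF, or 14.3%, a smaller share than the 39.4% over all genes tested. Without WT 2, Trav9-1, Trav12-3 and Trav13n-3 passed (edgeR, adjusted p = 0.0485, 0.0265 and 0.0474), the last with no WT count left. Trav13n-3 had 0, 2 and 0 counts in WT and 4, 11, 12 and 11 in GOF. A segment with such counts could pass the filter through GOF libraries alone, so these figures describe the tested segments only.

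The leading Trav segments by counts were Trav14n-3, Trav14-1, Trav7-4 and Trav14d-3-dv8. Trav14n-3 was at 5.19%, 4.40% and 6.29% in WT and at 3.64%, 4.67%, 4.53% and 4.45% in GOF, with overlap. Trav14-1 held 4.00% ± 0.240 (SD, n = 3) in WT and 4.38% ± 0.746 (SD, n = 4) in GOF, and Trav7-4 held 4.60% ± 0.449 and 3.88% ± 0.379. Their usage log2 fold changes lay between -0.29 and 0.24. Per length, Trav14-1 came first, with a mean share of 4.69% on the FPKM scale. The lengths behind FPKM can exceed the coding lengths, at 641 against 361 bases for Trav14n-3. Trav10, at rank 7 by counts, was at 3.89%, 3.29% and 4.06% in WT and at 3.16%, 3.00%, 2.80% and 2.85% in GOF, without overlap (edgeR, log2 fold change -0.34, adjusted p = 0.172). Trav3-3, Trav4-4-dv10 and Trav14-2 had usage log2 fold changes between 0.26 and 0.33 with overlapping groups, and none passed.

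**Figure D4:**
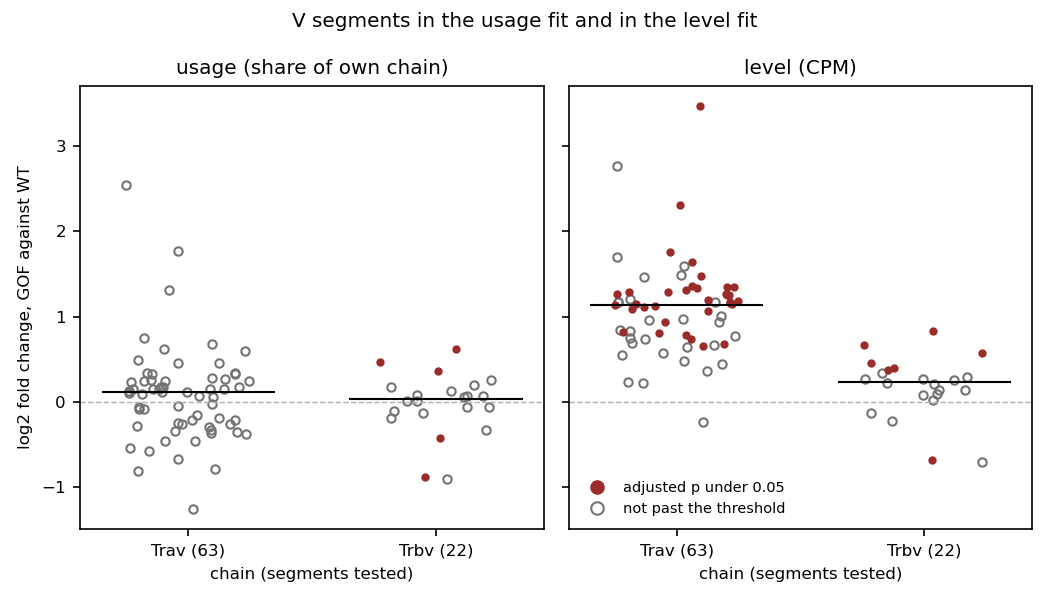
Log2 fold change of GOF against WT for each tested segment (63 Trav and 22 Trbv) in usage (left) and in level (right), with filled points for segments past the threshold and a line at each median. The Trav points centre on 1.13 in level and on 0.11 in usage.

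Summing the copies of a family removes part of the doubt over near-identical copies, though reads of copies listed at 0 may be missing from the sums. Of the 18 Trav families tested none passed in edgeR, where 31.1% of all features passed, and 2 had an unadjusted p under 0.05. These were Trav15, from 2.01% ± 0.666 (SD, n = 3) to 1.13% ± 0.200 (SD, n = 4), and Trav10, from 6.17% ± 0.484 to 4.78% ± 0.203 (edgeR, adjusted p = 0.0723 and 0.079). Neither family overlapped between the groups. Trav14, the most used family, held 19.6% ± 0.724 and 20.3% ± 0.989. Of the 19 Trbv families 4 passed, namely Trbv3, Trbv14, Trbv19 and Trbv29, each a family of 1 segment, where 31.1% of all features passed.

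Usage by position along the alpha locus differed little. Repeated rounds of joining in a thymocyte use Trav segments near Trac first and farther ones later. Divided into 3 intervals of equal length, the locus placed 34 segments in the interval farthest from Trac, 52 in the middle one and 42 in the nearest. The nearest interval held 65.0%, 64.8% and 65.6% of Trav counts in WT and 64.0%, 62.8%, 63.7% and 64.7% in GOF. The GOF libraries were all lower, but by little, with means of 65.1% ± 0.424 (SD, n = 3) and 63.8% ± 0.756 (SD, n = 4) (exact permutation test, 2-sided, p = 0.0571, adjusted p = 0.147). The farthest interval held 11.1% ± 0.672 and 11.8% ± 0.623, and the middle one 23.7% ± 0.715 and 24.4% ± 0.940, both with overlap. In the nearest interval 4 segments were at 0, against 17 in the farthest and 28 in the middle one, so the shares of the last 2 rest on fewer of their segments.

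**Figure D5:**
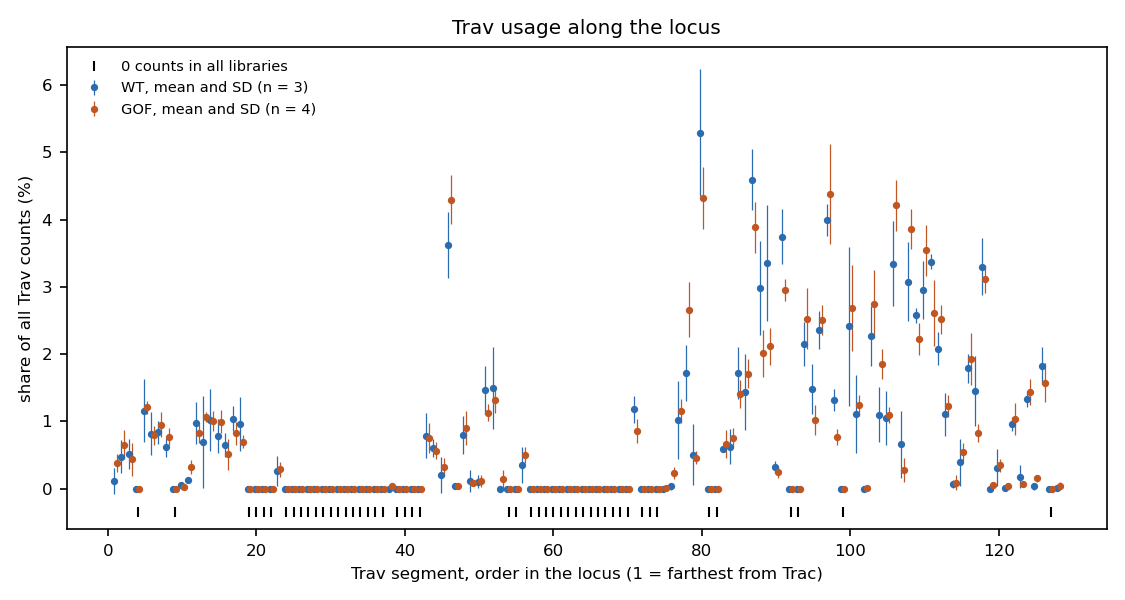
Share of Trav counts in percent for all 128 Trav segments in their order along the locus, from the farthest to the nearest to Trac, with the mean and SD of each group (WT, n = 3, and GOF, n = 4). Ticks below 0 mark the 49 segments with 0 counts, of which 17 lie in the interval farthest from Trac, 28 in the middle one and 4 in the nearest. The segment with the highest share, Trav14n-3, lies in the middle interval.

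The breadth of usage over segments overlapped between the groups for both chains. The effective number of segments, the exponential of the Shannon entropy of the shares, was 47.0, 50.8 and 47.7 for Trav in WT and 51.2, 51.1, 50.9 and 50.6 in GOF. WT 2 lay within the GOF range and the other WT libraries below it (exact permutation test, 2-sided, p = 0.114). These values were not brought to equal depth, and WT libraries had at most 1977 Trav counts against at least 4001 in GOF. At equal depth, the number of Trav segments with a count was 67.2 ± 6.49 (SD, n = 3) in WT and 72.7 ± 0.941 (SD, n = 4) in GOF. The groups overlapped there as well (exact permutation test, 2-sided, p = 0.229). For Trbv the effective number was 17.9 ± 0.0334 (SD, n = 3) in WT and 17.8 ± 0.187 (SD, n = 4) in GOF. Counted over Trbv families in place of segments it was 14.3 ± 0.0825 (SD, n = 3) in WT and 14.1 ± 0.155 (SD, n = 4) in GOF, without overlap (exact permutation test, 2-sided, p = 0.0571, the smallest that 3 against 4 libraries allow here). The lowest WT and the highest GOF library were both at 14.3 to that precision. The leading 8 Trav segments held 31.1% of Trav counts on average, far less than the leading 8 Trbv segments of theirs.

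Whole usage profiles were compared as the percent of a chain's counts that would have to be moved between segments to turn one library's profile into another's. For Trbv this distance was 7.84% to 10.2% between a WT and a GOF library, 3.50% to 4.50% between WT libraries and 2.39% to 3.97% between GOF libraries. Every pair across the groups was thus farther apart than any pair within a group. For Trav it was 10.4% to 18.1% across the groups and 14.2% to 15.7% between WT libraries, so that the ranges overlapped, and 8.33% to 9.93% between GOF libraries. Depth limits the alpha comparison: a WT library had at most 1977 Trav counts, spread over more segments.

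Downstream of the variable segments, the share of Trbj1 among beta joining segments and the choice of beta constant gene overlapped between the groups. Alpha joining segments (Traj) together took 34, 67 and 42 counts in WT and 99, 146, 95 and 116 in GOF, without overlap. The Traj total was not tested. Trbj1 segments lie before Trbc1 and Trbj2 segments before Trbc2. Trbj1 segments took 49.9% ± 6.58 (SD, n = 3) of WT Trbj counts and 47.4% ± 4.10 (SD, n = 4) of GOF ones, from only 108 to 243 Trbj1 counts per library (exact permutation test, 2-sided, p = 0.514). Trbc1 took 23.0% ± 1.18 (SD, n = 3) of Trbc counts among WT libraries and 23.0% ± 0.436 (SD, n = 4) among GOF libraries. The 2 closely similar Trbc genes can share reads. Of the 93 joining, diversity and gamma delta segments and constant genes, 25 were tested, of which Traj3 rose (edgeR, log2 fold change 1.51, adjusted p = 0.0463) and 2 gamma genes fell, where 31.3% of all genes tested passed. These 2, Tcrg-C1 and Tcrg-V4, are also markers of gamma delta T cells, among which Trdc, the delta constant gene, was at 25.2 ± 3.90 and 20.9 ± 3.45 CPM without passing the test (edgeR, adjusted p = 0.254). Traj3 was near the floor, at 0.215, 0.55 and 0.348 CPM in WT and 0.715, 1.34, 1.08 and 1.16 CPM in GOF. It could pass the filter on low counts through GOF libraries alone, so its call is weak ground for a rise.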

How the data were processed

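RNA sequencing counts of 3 WT and 4 GOF libraries were used. The authors deposited a table of counts and FPKM for 34745 genes with loci. HISAT2 2.0.4, Cufflinks 2.1.1, Cuffdiff and mm10 are named per the submitters' processing notes. No source used here gives the counting rule, the strand setting or the treatment of reads matching several places. FPKM values, as deposited, served only to rank segments per length.

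Groups and replicate numbers follow the sample titles. Counts of all genes were tested with edgeR 4.0.16 (quasi-likelihood, R 4.3.3, filterByExpr with a minimum count of 10, 12668 genes), with Benjamini-Hochberg adjustment over all of them and a threshold of 0.05. In the usage fit the offset of a segment is the log of its chain's total in the library, and that of other genes the TMM-scaled library total. The level fit uses TMM-scaled totals throughout. The family fit replaces segments by family sums. Measures with 1 value per library were compared by exact permutation tests (35 labellings, 18 measures adjusted together). The 95% intervals (Wilson) and the limit of 3 counts for a 0 cover counting error only. The segment usage fit was tried on simulated counts, and the other tests were not. Segment sequences, types and 50-base stretches come from GENCODE M21, whose loci equal the deposited ones for all 163 segments. The planned recombination signal sequences were not used here, since no genome was used, and the ends of coding sequences are shown in their place.

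Members and lists were chosen with earlier results of these data known, and some genes of the marker lists are not reported here. Named segments are the 8 of each chain with the highest mean usage, the segments and families called in usage, Trav1, Trav11, Trav11d, Trbv31 and the beta partners of the iNKT receptor, with the receptor constant and CD3 genes. Other segments (Trav9-1, Trav11n, Trav12-3, Trav13n-3, Trav7n-6, Trbv4, Trbv5, Trbv12-1, Trbv24, Traj3) were named after their values were seen. Alternatives were other totals, no filter, DESeq2 1.42.0, the replicate number as a block and libraries left out. Added after seeing the data were a Trbv total without Trbv19, segment numbers at equal depth and a mean count of at least 20.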

Additional observations from a re-analysis of the deposited data

Results flagged for a closer look

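In 4 of 41 groups of 4 GOF libraries examined, 1 library stood apart from the other 3, where chance marks about 1 in 20. Trav14d-3-dv8 took 3.75% of Trav counts in GOF 4 (95% Wilson interval 3.21% to 4.37%), below the other GOF libraries. Trav14-1 took 3.26% in the same library (2.76% to 3.85%), again the lowest. Trbv13-3 took 3.65% of Trbv counts in GOF 4 (3.30% to 4.03%), the only GOF library below WT. Trbv15 took 7.62% in GOF 1 (7.13% to 8.14%), above the other GOF libraries.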

How the results depend on the processing

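Trbv19 and Trbv3 passed in usage, in the same direction, in each fit that left out 1 library or a pair of GOF libraries, in DESeq2 and without a filter. Trbv3 missed the threshold only with the constant genes as total. The Trbv segments called in usage, 5 in all, were 9 with the constant genes as total, 3 without GOF replicates 1 and 3, 2 without GOF replicates 2 and 4, and between 2 and 4 without 1 library. The Trav segments called in usage, 0 in all, were 34 with TMM-scaled library totals, which makes usage a level, 1 with the constant genes as total, and between 0 and 3 without 1 library. In level, the 34 Trav calls were 10 and 15 without these pairs, and between 21 and 29 without 1 library, and the 7 Trbv calls were 2 without GOF replicates 1 and 3. Family calls were 16 (Trav) and 7 (Trbv) with TMM-scaled totals, 2 and 7 with the constant genes as total, 2 for Trbv without GOF replicates 2 and 4, and between 0 and 1 (Trav) and 2 and 3 (Trbv) without 1 library. Where fewer libraries were fitted, fewer of all genes passed too, and for other settings the cause was not tested.

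The main tests did not pair libraries by replicate number. Correlations of same-numbered deviations were 0.03, 0.15 and -0.04, and those of differently numbered ones lay between -0.18 and 0.13. Deviations within groups of 3 and 4 libraries depend on each other, so these values cannot exclude a pairing. With the replicate number as a block, 2 Trbv segments and 2 Trbv families passed in usage and 16 Trav segments in level. The usage of Trbv2 was then -0.022 on the log2 scale.

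The following values of usage turned sign, none of them past the threshold in the first place. With TMM-scaled totals the log2 fold changes of Trav14n-3, Trav7-4, Trav10, Trbv13-2, Trbv15 and Trbv1 were 0.74, 0.78, 0.68, 0.14, 0.021 and 0.14. With the constant genes as total those of Trbv2, Trbv16, Trbv20, Trbv31, Trbv13-1 and Trbv13-3 were -0.30, -0.30, -0.26, -0.055, -0.14 and -0.24. With Trbv19 out of the total those of Trbv2, Trbv16, Trbv20 and Trbv13-3 were -0.062, -0.056, -0.018 and -0.0057. Without GOF replicates 1 and 3 those of Trav14-1, Trbv16 and Trbv13-3 were -0.012, -0.021 and -0.043, and without GOF replicates 2 and 4 that of Trbv2 was -0.075. Without 1 library Trbv2 lay between -0.023 and 0.047 and Trbv16 between -0.012 and 0.059. The difference in the effective number of Trbv segments was 0.068 with functional segments only and 0.035 without GOF replicates 2 and 4, against -0.13. The difference in the Trbc1 share was 0.17 percentage points without GOF replicates 1 and 3 and between -0.40 and 0.66 without 1 library, and that in the Trbj1 share was 0.80 without GOF replicates 1 and 3.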
